A study of Mus musculus with 2 samples.

Results

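The 39 genes described here are 27 immediate early genes and 12 heat shock genes, taken by symbol from the 27998 genes of the count tables. All 39 symbols were found, each once, and 38 held at least 20 UMIs (unique molecular identifiers, each standing for a single transcript molecule) in the 5 cell gates compared. Egr3 held 1 UMI in each library. They were counted in single CD45+ cells, the leukocytes, of B16 melanomas grown in mice. The tumours were taken on day 14 after inoculation from C57BL/6 females of 5 weeks. There were 2 libraries, 1 per genotype: Foxp3Cre-YFP mice, called control, and Nrp1L/LFoxp3Cre-YFP mice, called Nrp1L/L. Both genotypes carry Cre recombinase and a yellow fluorescent protein under control of Foxp3, the lineage gene of regulatory T (Treg) cells, and only the second carries the floxed Nrp1 alleles on which that Cre acts. Whether a library pooled animals is not given, so genotype, mouse, tumour and library cannot be told apart, and no test of genotype was possible.

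Immediate early genes are transcribed within minutes of a stimulus, from factors already in the cell and before new protein is made. They encode AP-1, Egr, Nr4a and Klf transcription factors, and the phosphatases, RNA-binding proteins and NF-kB inhibitors that shut the response off. Heat shock genes encode chaperones that fold and hold proteins; some are always expressed, and others are switched on by heat shock factor when misfolded proteins accumulate. Both groups are known to respond to receptor signals in the tissue and to the enzymes, warmth and delay of tissue dissociation, and neither source was tested here.

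The control library held 1310 barcodes and 13042802 UMIs (median 8079.5 per barcode), and the Nrp1L/L library 1301 barcodes and 8978610 UMIs (median 5334); 3 barcode sequences occurred in both. Cells were gated on raw UMIs. The CD8 T gate took cells with CD3 and CD8 transcripts (236 control and 393 Nrp1L/L cells). The other CD3 gate took CD3 cells below the CD8 limit and outside a Treg-like gate (180 and 341). NK cells were set by Ncr1 and Klrb1c (81 and 186) and macrophages by C1q transcripts (269 and 87). Monocytes were set by Lyz2 with fewer than 10 C1q UMIs (322 and 134). The other CD3 gate was mixed: 32 control and 47 Nrp1L/L cells held at least 2 UMIs of Ncr1 and Klrb1c. In it, 20 and 36 cells held 1 CD8 UMI. Every marker of a gate's list that was in the table was detected in it, but the lists include the genes that set the gates. Detection alone does not tell the gates apart: all 7 NK and all 7 monocyte markers were also detected in CD8 T cells. In all, 175 control and 101 Nrp1L/L cells met no gate. A Treg-like gate (21 and 17 cells) was too small for counts of members. Foxp3 itself had 3 and 5 UMIs there and 0 in the other gates. For other CD3 cells the 0 is fixed by definition, since a Foxp3 UMI placed such a cell in the Treg-like gate. Nrp1 stood at 71.2 CPM (counts scaled to the gate's total UMIs; 18 UMIs) in control and 60.2 CPM (8 UMIs) in Nrp1L/L Treg-like cells, with overlapping counting intervals. The position of the loxP sites is not given, so a 3' count of Nrp1 does not check the deletion. Lyz2, which lymphocytes should lack, stood at 67.2 to 122 CPM in the 3 lymphoid gates against 6668 to 34013 CPM in the 2 myeloid gates. The gates bear on both values: lymphoid cells with at least 10 Lyz2 UMIs were left out, and the monocyte gate was set on Lyz2. Whether the lymphoid Lyz2 was free RNA was not tested.

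Promoters of 4 members carry the sequence features referred to beside the results: the pair Hspa1a and Hspa1b and the small heat shock protein gene Hspb1, which had the largest differences between libraries in macrophages, and Btg2, which was higher in Nrp1L/L cells of every lymphoid gate. Each line gives the 250 bases before the transcript start on GRCm38.p6, from RefSeq, read 5′ to 3′ on the gene's strand. Capitals mark the pair of inverted heat shock units GAANNTTC in the first 3 and the cyclic AMP response element TGACGTCA in Btg2.
Hspa1a, chr17:34972157-34972406, minus strand: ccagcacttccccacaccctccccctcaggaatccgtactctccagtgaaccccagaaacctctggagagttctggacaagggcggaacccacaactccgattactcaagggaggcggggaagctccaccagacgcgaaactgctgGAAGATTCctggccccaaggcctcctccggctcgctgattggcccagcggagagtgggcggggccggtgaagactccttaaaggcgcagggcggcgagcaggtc
Hspa1b, chr17:34959239-34959488, minus strand: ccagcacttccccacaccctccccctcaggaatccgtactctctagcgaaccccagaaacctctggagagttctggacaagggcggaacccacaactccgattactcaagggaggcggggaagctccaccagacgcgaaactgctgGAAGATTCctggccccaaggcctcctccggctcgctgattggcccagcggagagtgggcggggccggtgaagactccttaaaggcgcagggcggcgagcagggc
Hspb1, chr5:135887669-135887918, plus strand: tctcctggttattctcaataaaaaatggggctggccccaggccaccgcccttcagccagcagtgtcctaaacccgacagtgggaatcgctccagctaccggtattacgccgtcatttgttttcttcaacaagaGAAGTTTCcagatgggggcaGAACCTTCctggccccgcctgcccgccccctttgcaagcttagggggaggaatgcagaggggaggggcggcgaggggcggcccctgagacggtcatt
Btg2, chr1:134079156-134079405, minus strand: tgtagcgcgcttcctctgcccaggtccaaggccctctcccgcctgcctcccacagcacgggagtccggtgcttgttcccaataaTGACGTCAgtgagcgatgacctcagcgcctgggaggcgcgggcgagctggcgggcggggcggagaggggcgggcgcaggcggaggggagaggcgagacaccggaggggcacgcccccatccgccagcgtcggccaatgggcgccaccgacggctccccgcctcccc
In none of these 4 windows does an annotated exon lie. The Hspa1a and Hspa1b windows were identical at 247 of 250 positions, and both hold GAANNTTC 104 bases before the start; Hspb1 holds it at 117 and 97 bases, and Btg2 holds TGACGTCA at 166 bases. RefSeq windows were found for 32 members (23 immediate early, 9 heat shock). On either strand, GAANNTTC occurred in 6 of 9 heat shock genes (Dnaja1, Hspa1a, Hspa1b, Hspb1, Hspd1 and Hspe1) and in 2 of 23 immediate early genes (Fosl2 and Jun). By window that was 6 of 14 and 2 of 28, against 6.69% of all 32817 promoter windows. The divergent pair Hspd1 and Hspe1, whose windows overlap, also held the heat shock element of 3 units, found in 0.466% of windows. Their matches are the same bases, and the Hspa1a and Hspa1b windows are near copies, so the 6 genes do not hold 6 separate sites. TGACGTCA occurred in 3 of 23 immediate early genes (Btg2, Dusp1 and Ppp1r15a), in 3 of 28 windows against 1.55% of all windows. The CArG box occurred in Egr2 and Zfp36, in 5 of 28 windows against 1.47%. All but that of Zfp36 are windows of Egr2, most of which overlap and share the same matching bases. The 5 windows therefore do not hold 5 separate sites. The AP-1 site TGANTCA, in 6.75% of windows, was found in Tnfaip3 and Hspa5. The opposite pair TTCNNGAA, in 7.16% of windows, was found in Hspd1, Hspe1, Hsph1 and Egr2. These are matches of letters, not measured binding.

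Across cell types the immediate early genes, summed, were highest in monocytes and lowest in CD8 T cells. Their summed level was 18111 CPM in control and 18169 CPM in Nrp1L/L monocytes, 10826 and 12287 CPM in macrophages, 8614 and 13636 CPM in other CD3 cells, 7814 and 13388 CPM in NK cells, and 5332 and 7384 CPM in CD8 T cells. In the control library both myeloid gates stood above all 3 lymphoid gates, while in the Nrp1L/L library macrophages stood below other CD3 and NK cells. Single genes did not all follow the sum. Nr4a2 was highest in CD8 T cells in both libraries, overlapping NK cells in counting error, and Junb in other CD3 cells in the Nrp1L/L library. Of 26 measured immediate early genes, 7 were at least 2-fold higher in both myeloid gates than in every lymphoid gate in both libraries, against 5.2% of 10976 genes. These were Fos, Atf3, Egr2, Ier3, Dusp1, Zfp36 and Klf4. Only Dusp2, a nuclear phosphatase of MAP kinases, had the opposite pattern, against 4.34% of genes. Macrophages alone exceeded CD8 T cells at least 2-fold in both libraries for 10 of the 26, adding Fosb, Jun and Ier5 (14.9% of all genes); CD8 T cells exceeded macrophages for Dusp2, Nr4a2 and Nr4a3 (15.5% of all genes).

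Among immediate early genes with the same highest and lowest gate in both libraries, Atf3, a stress-inducible partner of AP-1, had the widest range. It stood at 886 CPM in control and 1101 CPM in Nrp1L/L monocytes and at 22.5 and 16.7 CPM in CD8 T cells, a 39.4-fold and 66.1-fold range. Klf4, a Kruppel-like factor of the monocyte lineage, ran from 217 and 337 CPM in monocytes to 6.04 and 11.7 CPM in CD8 T cells. Over the same gates Lyz2 ran from 22404 to 86.0 CPM in the control library; the part of free RNA in the low CD8 T levels was not tested. Fos had the same order in both libraries: monocyte (2467 control and 2695 CPM Nrp1L/L), macrophage (1575 and 2165), other CD3 (458 and 655), NK (423 and 522) and CD8 T (169 and 198). Only other CD3 and NK cells overlapped in counting error, and only in the control library. Zfp36, the RNA-binding protein tristetraprolin, ranged 11.7-fold and 10.7-fold with the same ends, and Jun 9.60-fold and 10.3-fold. Dusp2 was highest in NK cells (456 and 855 CPM) and lowest in macrophages (58.5 and 112 CPM).

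Summed, the heat shock genes separated the cell types less. None of the 12 passed 2-fold between the myeloid and lymphoid gates in both libraries in either direction, against 5.2% and 4.34% of all genes. With 12 members, that absence is not read as a result. Hspa1a met the limit in the control library but not in the Nrp1L/L library (154 CPM in macrophages, 166 CPM in other CD3 cells). Their summed level ran from 5614 CPM in other CD3 cells to 8194 CPM in monocytes in the control library and from 4877 CPM in macrophages to 7135 CPM in monocytes in the Nrp1L/L library. Hspd1, the mitochondrial chaperonin Hsp60, was the 1 heat shock gene at least 2-fold higher in CD8 T cells than in macrophages in both libraries (316 against 152 CPM and 196 against 87.6 CPM). Of all genes, 15.5% had that pattern. Hspa8, the constitutive Hsc70, ran only 1.59-fold and 1.73-fold from macrophages to monocytes. The wide ranges were those of Hspa1a, Hspa1b and Hspb1. Hspb1 ran from 364 CPM in control monocytes to 0 UMIs in NK cells, and Hspa1b ranged 16.3-fold in the control library. Hspa1a, the inducible Hsp70, stood at 1668 CPM in control monocytes against 24.4 CPM in control NK cells, and 802 against 34.8 CPM in the Nrp1L/L library.

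**Figure D1:**
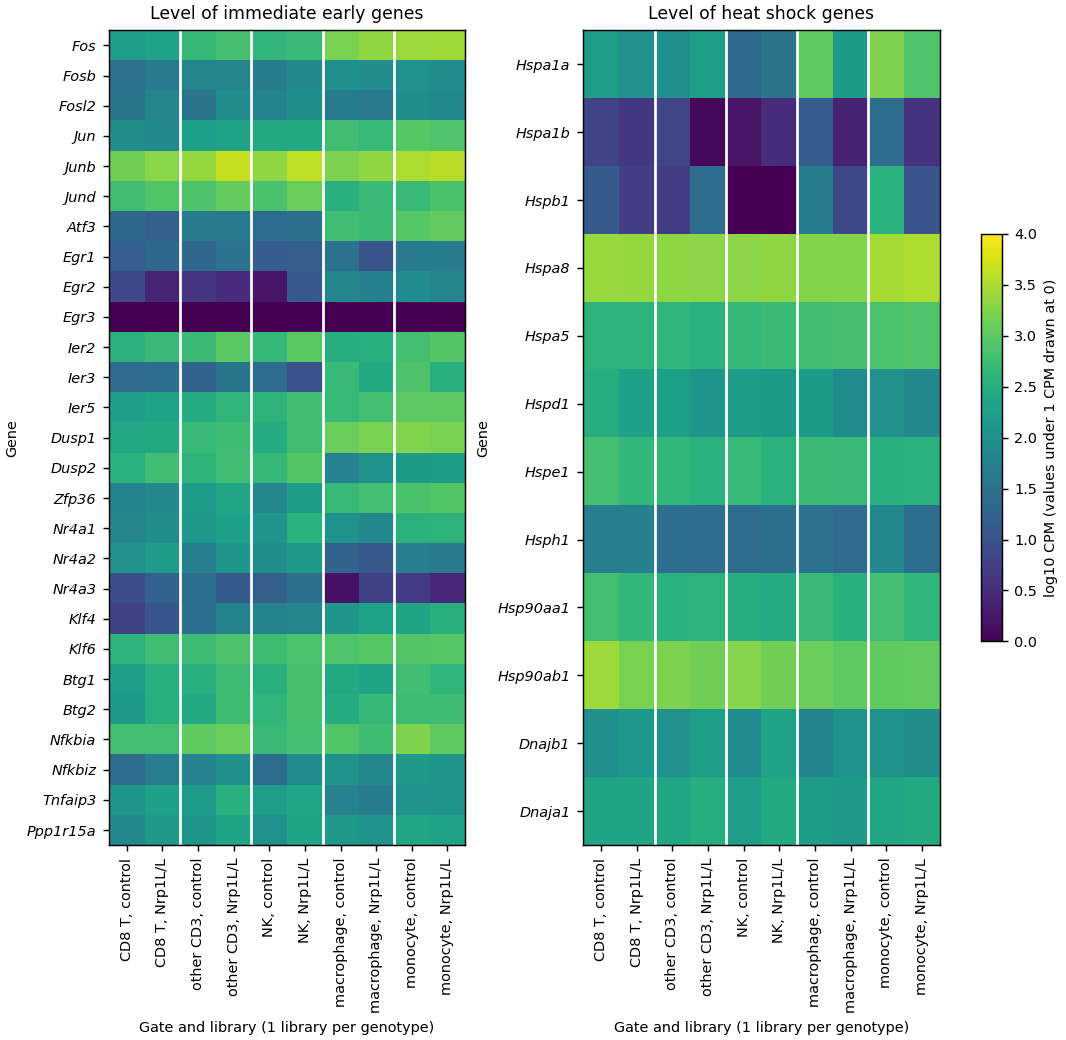
Level of each immediate early gene (left) and heat shock gene (right) as log10 CPM by gate and library, with levels under 1 CPM drawn at 0; white lines separate the 5 gates. Fos, Atf3, Dusp1 and Klf4 are brightest in the macrophage and monocyte columns, Hspa1a is brightest in both monocyte columns and control macrophages, and Hspa8 is even across all 10 columns.

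Between the libraries, more immediate early genes were called higher than lower in Nrp1L/L cells of each lymphoid gate, and few were called in the myeloid gates. A member was called at 1.5-fold or more with at least 20 UMIs over both libraries; log2 ratios are Nrp1L/L over control, with 95% counting intervals. In CD8 T cells 11 of 26 measured immediate early genes were higher (16.7% of 8903 genes) and 1 lower (13.6%), with a median log2 ratio of 0.52 against 0.00 for all genes. In other CD3 cells 13 of 25 were higher (18.5% of 7747 genes) and 1 lower (15.7%), median 0.60 against 0.02. In NK cells 14 of 25 were higher (23.6% of 5796 genes) and 1 lower (12.7%), median 0.70 against 0.09. In macrophages 3 of 25 were higher (14.3% of 7866 genes) and 3 lower (24.7%), median -0.16 against -0.12 for all genes. In monocytes 1 of 25 was higher (16.8% of 7240 genes) and 2 lower (18.1%), median 0.04 against -0.00. The myeloid shares are below or near the background, and the 3 lymphoid shares of higher genes are above it. The median share of Malat1, a nuclear RNA, moved in the same gates: from 0.309% of a cell's UMIs in control to 0.701% in Nrp1L/L CD8 T cells, from 0.735% to 1.15% in other CD3 and from 0.731% to 1.23% in NK cells, against 0.809% and 0.908% in macrophages and 0.944% and 0.813% in monocytes. Its part in the result was not tested. The NK gates of the 2 libraries also differed in NK markers, which summed to 6770 CPM in control and 15553 CPM in Nrp1L/L cells. Among them Gzma stood at 4369 and 12465 CPM. Whether a different make-up of the gate bears on the NK ratios was not tested.

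The heat shock genes did not follow. In CD8 T cells 0 of 12 were higher and 5 lower, with a median of -0.50, which became -0.019 when cycling cells were left out. In other CD3 cells 3 of 11 were higher and 1 lower (median -0.02), and in NK cells 2 of 10 were higher and 0 lower (median 0.17). In macrophages 1 of 12 was higher and 4 lower (median -0.28), and in monocytes 0 were higher and 4 lower (median -0.32). Over all genes, the shares called lower were 13.6% in CD8 T cells, 24.7% in macrophages and 18.1% in monocytes, and the shares called higher 18.5% in other CD3 and 23.6% in NK cells. With 10 to 12 members measured, a difference of a few genes from these shares is not read as a result.

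Many calls depended on the processing. Of 67 calls with an interval without 0, over both groups of genes and the 5 gates, 26 stayed at 1.5-fold or more in the same direction under every alternative that gave a value. Restricting to cells of 4000 to 8000 UMIs ended 27 calls, leaving out cycling cells 22 and thinning to 2500 UMIs 16. The immediate early calls that held were Btg2, Fosl2 and Nr4a2 in CD8 T cells, these 3 and Tnfaip3 in other CD3 cells, Dusp2, Ier2, Jund, Nfkbiz, Nr4a1 and Ppp1r15a in NK cells, Ier3 in macrophages, and Ier3 and Nfkbia in monocytes. The heat shock calls that held were Hspa1a, Hspa1b and Hspb1 in both myeloid gates, Hsph1 in monocytes, Dnajb1 in NK cells, and Hspb1 in CD8 T and other CD3 cells. For the other calls, a value that ended the call is given beside it.

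**Figure D2:**
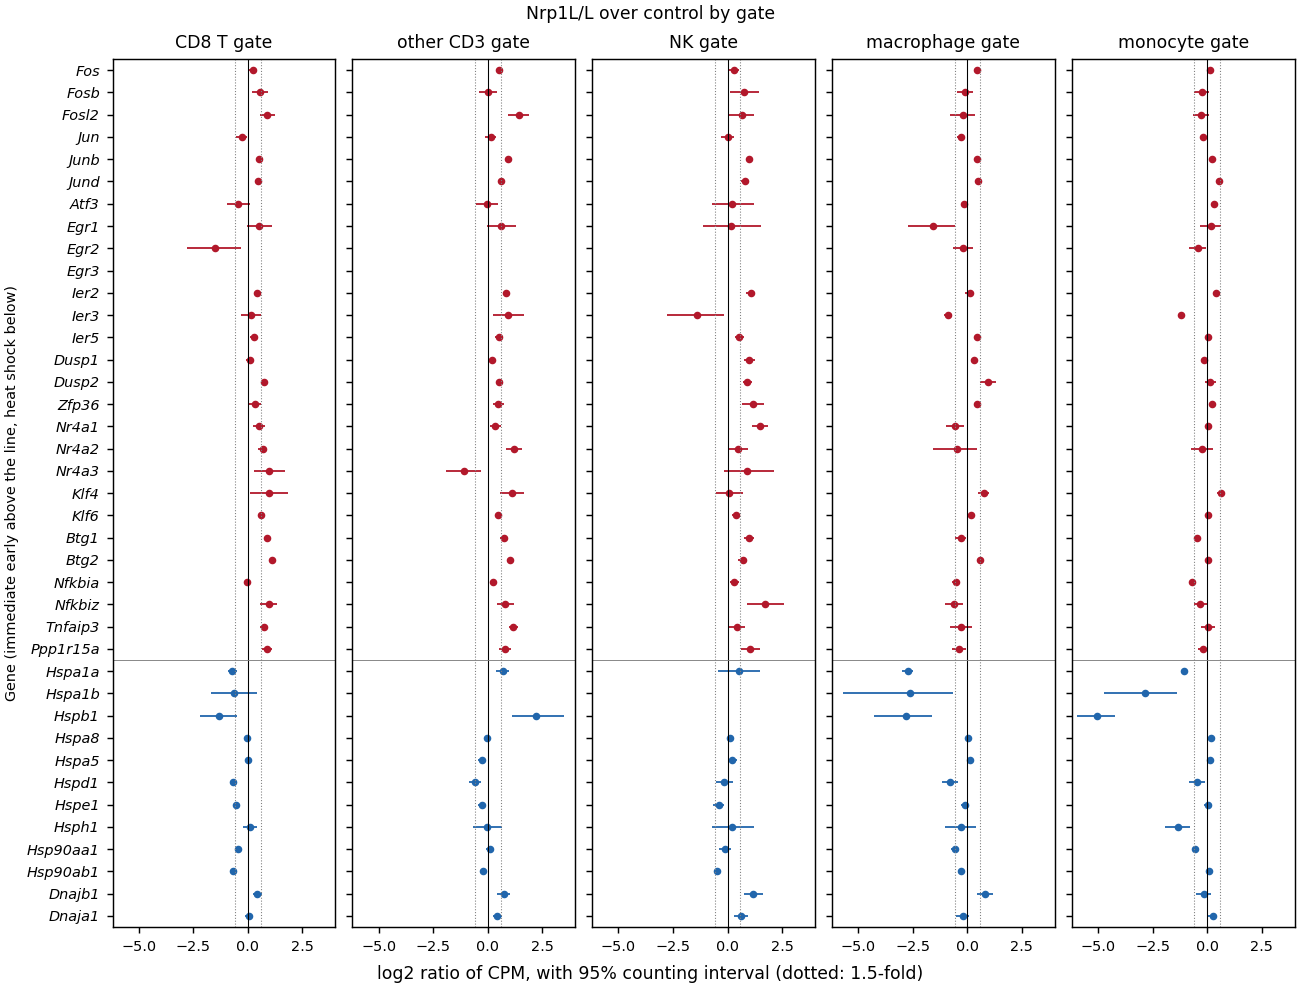
Log2 ratio of CPM, Nrp1L/L over control, for each measured member in the 5 gates, with 95% counting intervals; dotted lines mark 1.5-fold, and members under 20 UMIs are not drawn. Immediate early genes (red) lie mostly right of 0 in the CD8 T, other CD3 and NK panels, and Hspa1a, Hspa1b and Hspb1 (blue) lie far left in the macrophage and monocyte panels.

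Among the AP-1 genes Fosl2 was called higher in all 3 lymphoid gates, Junb and Jund in other CD3 and NK cells, and Fos, Jun and Atf3 in none of the 5 gates. Junb, a Jun protein that restrains c-Jun, stood at 2321 CPM in control and 4379 CPM in Nrp1L/L other CD3 cells, a log2 ratio of 0.92 (0.86 to 0.98). In NK cells it stood at 2087 and 4082 CPM (0.97, 0.88 to 1.06), and in CD8 T cells at 1379 and 1940 CPM (0.49, 0.44 to 0.55), under 1.5-fold. In macrophages it stood at 1622 and 2195 CPM (0.44), near the CD8 T ratio, and in monocytes at 3209 and 3687 CPM. Among cells of 4000 to 8000 UMIs the Junb ratio was 0.54 in other CD3 and 0.57 in NK cells, just under 1.5-fold. Fosl2, which encodes Fra-2, was higher in all 3 lymphoid gates: 34.6 and 92.4 CPM in other CD3 cells (1.42, 0.95 to 1.91), 35.9 and 66.6 CPM in CD8 T cells (0.89, 0.55 to 1.24) and 63.5 and 98.8 CPM in NK cells (0.64, 0.08 to 1.22). The NK call of Fosl2 was lost under 6 alternatives, with 0.17 in that UMI window. Jund had ratios of 0.60 and 0.79 in other CD3 and NK cells and of 0.47, 0.49 and 0.52 in the CD8 T, macrophage and monocyte gates, so it was above 0 in all 5; the other CD3 call ended when cells were thinned (0.44). Jun was within 1.5-fold in all 5 gates, between -0.31 and 0.13, and Fos likewise, between 0.13 and 0.52. Fosb passed the limit in NK cells alone (0.77), and fell under it when cells were thinned (0.42).

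Egr genes, zinc finger factors induced through MAP kinase signalling, were scarce. Egr1 was lower in Nrp1L/L macrophages, with 101 control and 9 Nrp1L/L UMIs (32.1 and 10.8 CPM; -1.57, -2.74 to -0.59), but among cells of 4000 to 8000 UMIs its ratio was 0.64. Egr2 had 22 and 9 UMIs in CD8 T cells (7.39 and 2.63 CPM; -1.49, -2.79 to -0.31), and the sign turned when cells were thinned to equal depth (0.85) or cycling cells were left out (0.77). Neither difference therefore rests on many transcripts. Egr1 in other CD3 cells passed 1.5-fold (21.5 and 32.8 CPM), with an interval that held 0.

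The Nr4a orphan receptors, induced by antigen receptor signals in lymphocytes, differed by gate. Nr4a1, which encodes Nur77, stood at 129 CPM in control and 361 CPM in Nrp1L/L NK cells (1.49, 1.13 to 1.86). In CD8 T, other CD3 and monocyte gates its ratio was 0.51, 0.34 and 0.04, and in macrophages -0.56. Nr4a2 was higher in other CD3 cells (54.7 and 125 CPM; 1.20, 0.81 to 1.59) and in CD8 T cells (104 and 165 CPM; 0.67, 0.47 to 0.87). Nr4a3 was higher in CD8 T cells (8.73 and 17.2 CPM; 0.98, 0.29 to 1.71) and lower in other CD3 cells (28.4 and 13.4 CPM; -1.09, -1.90 to -0.30). It also passed 1.5-fold in NK cells (10 and 28 UMIs; 0.90), with an interval that held 0. Thinning brought the CD8 T ratio to 0.43, and the UMI window turned the other CD3 ratio (1.61). In that control gate 1 cell held 21 of the 41 Nr4a3 UMIs. In macrophages Nr4a3 had 5 UMIs in each library and was not counted.

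Klf4 was the 1 immediate early gene called higher in both myeloid gates: 126 and 213 CPM in macrophages (0.75, 0.49 to 1.01) and 217 and 337 CPM in monocytes (0.63, 0.44 to 0.83). It was also higher in CD8 T cells, from a low level (6.04 and 11.7 CPM; 0.95, 0.12 to 1.84), and in other CD3 cells (28.4 and 61.4 CPM; 1.11, 0.58 to 1.67), and near equal in NK cells (0.08). Each of these 4 calls ended under some alternative: 0.43 in macrophages with gates set on thinned cells, 0.15 in monocytes in the UMI window, and 0.49 and 0.46 in thinned CD8 T and other CD3 cells. Klf6 reached 1.5-fold in CD8 T cells alone (388 and 585 CPM; 0.59), with 0.35 in the UMI window.

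A further 9 members encode early response, attenuation and growth arrest proteins. Btg2, an antiproliferative factor that recruits the deadenylation machinery, stood at 147 and 318 CPM in CD8 T cells (1.11, 0.95 to 1.28), 278 and 572 CPM in other CD3 cells (1.04, 0.87 to 1.21) and 428 and 695 CPM in NK cells (0.70, 0.49 to 0.91). In macrophages Btg2 was also above 1.5-fold (305 and 461 CPM; 0.60), but not among cells of 4000 to 8000 UMIs (-0.054), and in monocytes it was near equal (556 and 568 CPM). Its relative Btg1 had ratios of 0.88, 0.74 and 0.99 in the CD8 T, other CD3 and NK gates and of -0.31 and -0.47 in the macrophage and monocyte gates. Ppp1r15a, the phosphatase subunit Gadd34 that reverses eIF2 phosphorylation, had 0.85, 0.78 and 1.05 in the lymphoid gates and -0.39 and -0.19 in the myeloid gates. In the UMI window Btg1 had 0.32 in CD8 T, 0.32 in other CD3 and 0.42 in NK cells, and Btg2 had 0.41 in NK cells. Without cycling cells Ppp1r15a had 0.35 in CD8 T and 0.50 in other CD3 cells. Btg2 and Ppp1r15a are 2 of the 3 members with the cyclic AMP response element. The third, Dusp1, a phosphatase that switches off p38 and Jnk, was higher in NK cells alone (296 and 592 CPM; 1.00, 0.75 to 1.25), with 0.34 in the UMI window.

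Ier2, a small nuclear protein of the early response, was higher in NK cells (462 and 963 CPM; 1.06, 0.86 to 1.26) and other CD3 cells (530 and 954 CPM; 0.85). Zfp36, which triggers decay of cytokine mRNAs, was higher in NK cells alone (71.6 and 161 CPM; 1.17, 0.67 to 1.69). Dusp2 was higher in CD8 T cells (355 and 591 CPM; 0.74), in NK cells (0.91) and, from a low level, in macrophages (58.5 and 112 CPM; 0.93). The UMI window ended the calls of Ier2 in other CD3 cells (0.39), Zfp36 in NK cells (0.53) and Dusp2 in macrophages (0.048), and Dusp2 in CD8 T cells had 0.22 without cycling cells. Ier5 was within 1.5-fold in all 5 gates.

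Ier3, an early response gene of myeloid cells linked to survival, went the other way. It stood at 754 CPM in control and 332 CPM in Nrp1L/L monocytes (-1.18, -1.35 to -1.02) and at 523 and 283 CPM in macrophages (-0.88, -1.09 to -0.69). In NK cells it was also lower, from 16 and 9 UMIs (26.0 and 9.77 CPM; -1.41, -2.77 to -0.15), with a ratio of 0.02 after thinning. In other CD3 cells it was higher (18.7 and 35.9 CPM; 0.94, 0.26 to 1.65), where 1 Nrp1L/L cell held 38 of the 59 UMIs and the UMI window turned the sign (-2.13).

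Of the 3 NF-kB feedback genes, Nfkbiz was called in opposite directions in lymphoid and macrophage gates, Tnfaip3 in lymphoid gates alone and Nfkbia in monocytes alone. Nfkbiz, a nuclear NF-kB inhibitor family member that also coactivates target genes, was higher in CD8 T cells (26.2 and 50.5 CPM; 0.95, 0.55 to 1.35), other CD3 cells (58.9 and 103 CPM; 0.80) and NK cells (26.0 and 84.7 CPM; 1.70, 0.91 to 2.58), and lower in macrophages (114 and 74.4 CPM; -0.61, -1.02 to -0.22). Tnfaip3, the ubiquitin-editing enzyme A20, was higher in other CD3 cells (155 and 351 CPM; 1.18, 0.95 to 1.41) and CD8 T cells (0.72), with 0.43 in NK cells, -0.28 in macrophages and 0.05 in monocytes. In the UMI window the CD8 T ratios were 0.087 for Nfkbiz and 0.30 for Tnfaip3, without cycling cells Nfkbiz had 0.32 in other CD3 cells, and with stricter gates it had -0.36 in macrophages. Nfkbia, the inhibitor I-kappa-B alpha, was lower in monocytes (1677 and 1028 CPM; -0.71, -0.80 to -0.61) and lay at -0.54 in macrophages and between -0.02 and 0.31 in the lymphoid gates.

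Hspa1a, Hspa1b and Hspb1 were lower in both Nrp1L/L myeloid gates. Hspa1a stood at 1029 CPM in control macrophages (3235 UMIs) and 154 CPM in Nrp1L/L macrophages (128 UMIs), a log2 ratio of -2.74 (-3.01 to -2.49). In monocytes it stood at 1668 and 802 CPM (-1.06, -1.16 to -0.95) and in CD8 T cells at 171 and 105 CPM (-0.71, -0.91 to -0.51), with -0.33 there without cycling cells. In other CD3 cells it was higher (103 and 166 CPM; 0.69, 0.39 to 0.98), but 1 Nrp1L/L cell held 176 of the 273 UMIs, and the ratio was -0.057 among cells of 4000 to 8000 UMIs. In NK cells it had 15 and 32 UMIs, 22 of the latter in 1 cell.

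Hspb1, the small heat shock protein Hsp27, had the widest difference of all members: 364 CPM (936 UMIs) in control and 11.2 CPM (12 UMIs) in Nrp1L/L monocytes, -5.03 (-5.99 to -4.22). Those 936 UMIs came from 22 of 322 cells, and 1 cell held 387 of them. In macrophages Hspb1 had 157 and 6 UMIs (-2.79, -4.26 to -1.64), from 17 and 3 cells, and in CD8 T cells it stood at 13.8 and 5.55 CPM (-1.31, -2.18 to -0.49). In other CD3 cells it was higher (8 and 42 UMIs; 2.21, 1.10 to 3.51), from 2 Nrp1L/L cells, and in NK cells it was at 0 UMIs in both libraries. The intervals treat UMIs as independent, which a gene held by so few cells is not. Hspa1b was lower in monocytes (68 and 4 UMIs; -2.83, -4.75 to -1.41) and macrophages (46 and 2 UMIs; -2.61, -5.70 to -0.67). Since Hspa1a and Hspa1b are near-identical copies, reads could be split between them; summed, they gave -2.74 in macrophages and -1.07 in monocytes.

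The constitutive Hsp70 proteins did not differ by 1.5-fold in any gate. Hspa8 stood at 2395 and 2361 CPM in CD8 T cells and 1796 and 1838 CPM in macrophages, with all 5 ratios between -0.05 and 0.15. Hspa5, the endoplasmic reticulum chaperone BiP, lay between -0.28 and 0.21. Hspd1 was lower in CD8 T cells (316 and 196 CPM; -0.69, -0.83 to -0.54), macrophages (152 and 87.6 CPM; -0.80, -1.17 to -0.44) and other CD3 cells (188 and 125 CPM; -0.59, -0.86 to -0.32). In the UMI window the CD8 T ratio of Hspd1 was -0.0033, in thinned other CD3 cells it was -0.029, and without cycling cells it was -0.49 in macrophages. Its co-chaperonin Hspe1, from the shared divergent promoter, lay at -0.54, -0.11 and -0.28 in the same gates.

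Hsp90ab1, the constitutive Hsp90, stood at 2566 CPM in control and 1581 CPM in Nrp1L/L CD8 T cells (-0.70, -0.75 to -0.65) and at -0.50 in NK cells. The CD8 T ratio of Hsp90ab1 was -0.38 without cycling cells and -0.24 in the UMI window. Hsp90aa1, its stress-responsive relative, lay at -0.57, -0.55 and -0.47 in macrophages, monocytes and CD8 T cells, each just under 1.5-fold. Hsph1, the Hsp110 exchange factor, was lower in monocytes (70.4 and 27.9 CPM; -1.34, -1.95 to -0.77). The J-domain co-chaperone Dnajb1 had the opposite direction: 87.9 and 199 CPM in NK cells (1.18, 0.73 to 1.64), 62.4 and 108 CPM in macrophages (0.79, 0.42 to 1.16) and 104 and 172 CPM in other CD3 cells (0.72, 0.43 to 1.02). In the UMI window its ratio was -0.16 in macrophages and 0.49 in other CD3 cells. Dnaja1 was higher in NK cells (177 and 270 CPM; 0.61, 0.28 to 0.95), and TMM scaling brought that to 0.55.

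Cell by cell, after each cell was thinned to 2500 UMIs, nearly all cells held UMIs of the summed immediate early genes and of the summed heat shock genes. Single members were sparser: in control CD8 T cells Junb was in 84.3%, Fos in 25.8% and Atf3 in 3.81% of cells. The immediate early median was 14 UMIs per cell in control and 18 in Nrp1L/L CD8 T cells, 23 and 33 in other CD3 cells, 21 and 34 in NK cells, 27 and 28 in macrophages and 43.5 and 42 in monocytes. The quartiles of NK cells moved with the median, from 15 and 32 in the control to 24.2 and 45 in the Nrp1L/L library. The heat shock genes had medians of 14 and 12 UMIs per cell in CD8 T cells, 11.5 and 10 in other CD3 cells, 12 and 11 in NK cells, 12 and 9 in macrophages and 12 and 14 in monocytes. Their upper tail was long in the control myeloid gates: the 95th percentile was 50.8 UMIs in macrophages and 71.0 in monocytes, against 25 and 47.9 in the Nrp1L/L library. Within gates the 2 groups of genes did not move together: Spearman's rho between their UMIs per cell lay between -0.37 and 0.15 over the 10 gates and libraries. Fos and Dusp1 did in myeloid cells, with rho of 0.56 and 0.57 in macrophages and 0.46 and 0.45 in monocytes, while in the lymphoid gates rho was at most 0.19. Fos was also sparser in the lymphoid gates, in 25.8% to 55.6% of thinned cells against 77.3% to 91.0% in the myeloid gates. Whether detection sets this difference in rho was not tested. The rho values are descriptions over cells of 1 library, which share their depth and preparation.

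**Figure D3:**
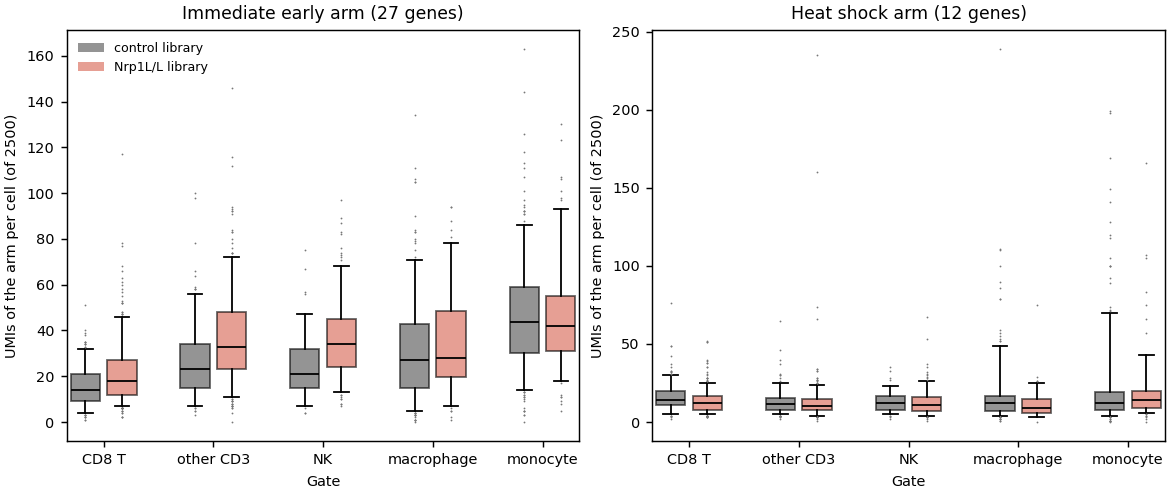
UMIs of the 27 immediate early genes (left) and the 12 heat shock genes (right) per cell after thinning to 2500 UMIs, by gate and library; boxes show the median and quartiles, whiskers the 5th and 95th percentiles, and dots the cells outside them. Boxes of the Nrp1L/L library sit higher for immediate early genes in the 3 lymphoid gates, and the upper heat shock whiskers reach furthest in the control myeloid gates.

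Most Hspa1a UMIs lay in a minority of cells. Before thinning, 50.6% of control macrophages and 43.5% of control monocytes held at least 1 Hspa1a UMI. In thinned control cells the top 10% of cells held 86.9% of its UMIs in macrophages and 87.2% in monocytes. With a limit of 10 Hspa1a UMIs of 2500, chosen after the values were seen, 21 of 269 control macrophages were high (7.81%, exact binomial interval 4.90 to 11.7) against 1 of 87 Nrp1L/L macrophages (1.15%, 0.0291 to 6.24). Of monocytes, 39 of 322 were high (12.1%, 8.76 to 16.2) against 6 of 134 (4.48%, 1.66 to 9.49). In the lymphoid gates 0 to 4 cells per library were high; in control NK cells there were 0 of 81, with an exact upper limit of 4.45%. Within 2 UMIs of the limit lay 4 control macrophages and 9 control monocytes.

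The high cells carried other chaperones as well. In the 39 high control monocytes, against the other control monocytes, Hsp90aa1 stood at 2533 against 400 CPM, Hsph1 at 370 against 32.5, Hspb1 at 1392 against 234, Dnajb1 at 339 against 78.5, Dnaja1 at 850 against 152 and Hspa8 at 5514 against 2525. Of the immediate early genes, Jun (2280 against 727 CPM) and Ppp1r15a (508 against 202) were also higher there, while Fos was not (2253 against 2494) and Nr4a1 was lower (104 against 413). The 21 high control macrophages showed Jun at 1753 against 520 CPM and Fos at 578 against 1631. The cochaperone gene Bag3, no member, stood at 117 against 15.4 CPM in monocytes. Values for cells chosen by Hspa1a are a description. Pgf transcripts, counted in at least 2 UMIs in 13 control monocytes, were also higher in the high monocytes (294 against 24.6 CPM); without Pgf-positive cells the monocyte ratio of Hspa1a was -1.02.

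**Figure D4:**
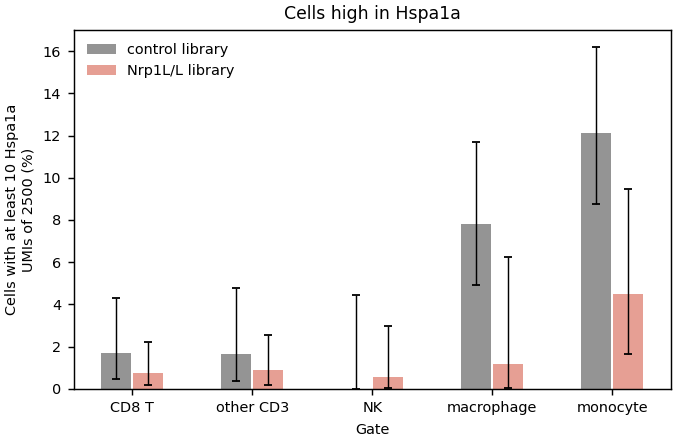
Share of cells with at least 10 Hspa1a UMIs of 2500, in percent, by gate and library; bars start at 0 and lines are exact 95% binomial intervals, which cover counting error only. Control monocytes (12.1%) and control macrophages (7.81%) stand highest, and all lymphoid bars are under 2%.

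Depth and cell cycle moved with these differences. Immediate early UMIs per thinned cell were fewer in cells with more UMIs before thinning: rho was -0.37 and -0.45 in CD8 T cells (control and Nrp1L/L), -0.52 and -0.28 in other CD3 cells and -0.62 and -0.46 in NK cells. Median UMIs per cell were 10846 and 6578 in the CD8 T gate, 5718.5 and 4044 in other CD3 and 5450 and 4289.5 in NK. Among cells of 4000 to 8000 UMIs the immediate early medians were 0.32, 0.35 and 0.41 in these 3 gates. Cycling cells, with at least 5 UMIs of cell cycle genes per 10000, were 55.1% of control and 37.4% of Nrp1L/L CD8 T cells, 30% and 16.4% of other CD3 cells and 22.2% and 18.3% of NK cells. Without them the immediate early medians were 0.36, 0.31 and 0.80, and the heat shock median was 0.38 in other CD3 cells. Within cycling CD8 T cells alone Hsp90ab1 stood at 2891 and 1872 CPM and within the others at 1574 and 1213 CPM. Depth and cycling were not otherwise tested as sources.

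**Figure D5:**
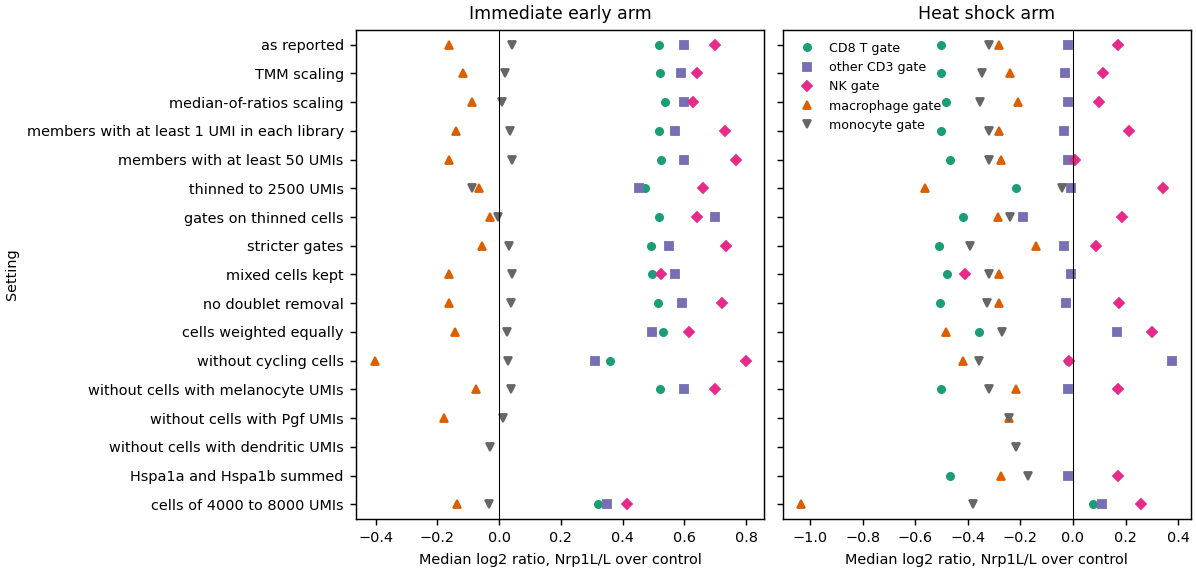
Median log2 ratio over the immediate early genes (left) and heat shock genes (right) under each processing alternative, by gate; a setting that does not apply to a gate has no point. Immediate early medians are above 0 in the 3 lymphoid gates under every setting shown, while the heat shock medians of the lymphoid gates cross 0.

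Further genes of the same pathways were counted from lists. Over all genes the shares called higher and lower were 16.7% and 13.6% in CD8 T, 18.5% and 15.7% in other CD3, 23.6% and 12.7% in NK cells, 14.3% and 24.7% in macrophages and 16.8% and 18.1% in monocytes. Of 39 other measured early response genes, 11 were higher and 2 lower in CD8 T cells, 19 higher and 0 lower in other CD3 cells, and, of 37 in NK cells, 17 higher and 0 lower, with medians of 0.26, 0.52 and 0.55. In macrophages 6 of 39 were higher and 3 lower, and in monocytes 5 higher and 8 lower, with medians of 0.09 and -0.02. The macrophage share of higher genes is near the background. Klf2, a quiescence factor, stood at 546 and 1275 CPM in other CD3 cells (1.22), and Nfkbid, a nuclear NF-kB inhibitor, at 8.14 and 54.3 CPM in NK cells (2.74). Irf1, an interferon response factor, was higher in macrophages (85.6 and 215 CPM; 1.33) and monocytes (112 and 320 CPM; 1.51), while Myc was lower in both (-2.17 and -1.83).

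Of the other cytosolic chaperones and their regulators, 3 of 40 were higher and 5 lower in CD8 T cells, 5 and 4 of 40 in other CD3 cells, 7 and 2 of 34 in NK cells, 2 and 9 of 40 in macrophages, and 4 and 3 of 37 in monocytes, with medians of -0.32, -0.03, 0.02, -0.23 and 0.02. Against the shares over all genes just given, the lower genes in CD8 T cells and macrophages are near the background. Bag3 was lower in CD8 T cells (-1.62) and other CD3 cells (-1.77). Of endoplasmic reticulum and integrated stress genes, 1 of 21 was higher and 1 lower in CD8 T cells and 1 of 19 higher and 6 lower in other CD3 cells. In NK cells 4 of 16 were higher and 2 lower, in macrophages 0 of 21 higher and 4 lower, and in monocytes 1 of 21 higher and 2 lower. Medians were -0.12, -0.28, 0.11, -0.09 and 0.05 in that order. Ddit3, which encodes Chop, was higher in NK cells (24.4 and 72.8 CPM; 1.58) and CD8 T cells (0.64).

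Of T cell activation genes, to be read against 16.7% and 18.5% of all genes higher in the CD8 T and other CD3 gates, 7 of 14 were higher and 2 lower in CD8 T cells, and 8 of 15 higher and 0 lower in other CD3 cells, with medians of 0.64 and 0.60. In NK cells 4 of 11 were higher and 2 lower, median 0.52. The chemokine Ccl4 stood at 1191 and 3502 CPM in CD8 T cells (1.56) and 443 and 1964 CPM in other CD3 cells (2.15), and Xcl1 was lower in CD8 T cells (-1.82). Of myeloid activation genes, with 24.7% and 18.1% of all genes lower in macrophages and monocytes, 3 of 18 were higher and 4 lower in macrophages, and 2 higher and 7 lower in monocytes, with medians of -0.12 and -0.26. The neutrophil chemokine gene Cxcl2 was lower in monocytes (4602 and 1018 CPM; -2.18), and Cxcl3 had 1367 control and 2 Nrp1L/L UMIs there.

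The Treg-like gate took CD3 cells outside the CD8 T gate with a Foxp3 UMI, or with both Il2ra and Ikzf2 UMIs; a Foxp3 UMI was seen in 3 of 21 control and 3 of 17 Nrp1L/L cells. Whether Cre acted in its other cells is not shown, and the members are given as values only. Junb stood at 1773 CPM in control and 3550 CPM in Nrp1L/L cells (448 and 472 UMIs), Ier2 at 229 and 729 CPM, Nr4a1 at 79.1 and 353 CPM, and Fos at 150 and 474 CPM. Klf6 stood at 665 and 376 CPM, Hspa8 at 2189 and 2188 CPM and Hsp90ab1 at 1615 and 1399 CPM. Nr4a3 went the other way from Nr4a1, with 19 and 1 UMIs, and Hspa1a had 20 and 1 UMIs. The gate held 21 and 17 cells, so single cells can carry these values.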

How the data were processed

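Deposited files held UMI counts per gene and barcode for 2 libraries; per the submitters' processing notes they were made with Cell Ranger 1.3 on mm10, and all deposited counts were whole numbers. Scrublet (scanpy 1.11.5, expected rate 2%) scored doublets in each library: 8 control barcodes were left out, and in the Nrp1L/L library, where it called 3 (0.231%), the 26 highest scores. Gates needed at least 2 CD3, CD8 or NK UMIs, or 10 C1q or Lyz2 UMIs; 18 control and 16 Nrp1L/L cells meeting a lymphoid and a myeloid gate were left out. UMIs were summed per gate and library and scaled to CPM, with exact Poisson intervals, and log2 ratios carry exact conditional binomial intervals; all are at 95% and cover counting error only. The script was tested on simulated data. Members measured had at least 20 UMIs. Full statistics went to up to 6 members per gate and arm, at least 1.5-fold different with an interval without 0, to members with the widest range and the same highest and lowest gate in both libraries, and to up to 4 genes per other list and gate. Members and lists were chosen with earlier results of these data known. Alternatives were edgeR 4.0.16 TMM and median-of-ratios scaling, other UMI minimums, thinning to 2500 UMIs, other gates, doublet handling, equal cell weights and leaving out cycling, melanocyte, Pgf or dendritic cells. The window of 4000 to 8000 UMIs was added after seeing the data. Egr1, Egr3, Ier2, Nfkbiz, Hspa8, Hsp90aa1 and Hsp90ab1 had no promoter window here.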

Additional observations from a re-analysis of the deposited data

Results flagged for a closer look

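In all, 5 members differed in opposite directions between gates, each side by at least 1.5-fold with a counting interval without 0; the difference between gates was not tested. Egr1 also passed 1.5-fold both ways (0.61 in other CD3 cells, -1.57 in macrophages), but its other CD3 interval held 0. Ier3 had a log2 ratio, Nrp1L/L over control, of 0.94 in other CD3 cells and of -1.41, -0.88 and -1.18 in the NK, macrophage and monocyte gates. Nr4a3 had 0.98 in CD8 T cells and -1.09 in other CD3 cells. Nfkbiz had 0.95, 0.80 and 1.70 in the CD8 T, other CD3 and NK gates and -0.61 in macrophages. Hspa1a had 0.69 in other CD3 cells and -0.71, -2.74 and -1.06 in the CD8 T, macrophage and monocyte gates. Hspb1 had 2.21 in other CD3 cells and -1.31, -2.79 and -5.03 in the same 3 gates. In other CD3 cells a single cell held most of the UMIs behind the value for Ier3 (38 of 59), Nr4a3 (21 of 41), Hspa1a (176 of 273) and Hspb1 (35 of 42), so the Nfkbiz contrast is the 1 not carried by a single cell there. It still depended on processing: with TMM scaling the macrophage ratio was -0.57, under 1.5-fold. The CD8 T ratio was 0.087 among cells of 4000 to 8000 UMIs, and the other CD3 ratio 0.32 without cycling cells. The NK call of Nfkbiz held under every alternative.

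Cells in no gate, which the comparisons did not use, were higher in the Nrp1L/L library for Fosb (log2 ratio 1.56), Jun (1.38), Junb (1.22), Egr1 (1.84), Ier2 (2.06), Dusp2 (1.99), Nfkbiz (1.82), Tnfaip3 (1.57) and Dnajb1 (1.71). Other members were lower there, among them Atf3 (-0.73), Hspa1a (-0.97), Hspd1 (-1.20) and Hspb1 (-2.77). Splitting the ungated cells by Mcpt8 and Cpa3, transcripts of basophils and mast cells, was chosen after the data were seen. It gave 20 Nrp1L/L cells and 1 control cell with at least 2 such UMIs. In those 20 cells Ier2 stood at 11593 CPM, Junb at 15961, Jun at 8541, Fos at 6551 and Egr1 at 1395 CPM, and Dusp2 at 0 UMIs. In the other ungated cells of the control and Nrp1L/L libraries Junb had 1857 and 2309 CPM, Jun 684 and 655, Ier2 523 and 687, Egr1 61.3 and 10.6, and Dusp2 86.0 and 404 CPM. Ungated cells of the 2 libraries were not alike. At least 3 dendritic UMIs were held by 57.7% of all ungated control and 26.7% of all ungated Nrp1L/L cells. NK markers summed to 128 and 3098 CPM and melanocyte markers to 572 and 0 CPM.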

How the results depend on the processing

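No paired analysis was possible because each genotype has 1 library, so neither a replicate block nor leaving out a replicate could be fitted. Immediate early medians ranged over all alternatives from 0.32 to 0.54 in CD8 T cells, 0.31 to 0.70 in other CD3 cells, 0.41 to 0.80 in NK cells, -0.40 to -0.03 in macrophages and -0.09 to 0.04 in monocytes, and heat shock medians from -0.51 to 0.08, -0.19 to 0.38, -0.41 to 0.34, -1.04 to -0.14 and -0.39 to -0.04. Of 169 medians, 151 moved less than counting error and 18 more. Without cycling cells the heat shock median was -0.019 in CD8 T and 0.38 in other CD3 cells and the immediate early median 0.31 in other CD3 cells. Within 4000 to 8000 UMIs these were 0.075 (heat shock, CD8 T), 0.35 (immediate early, other CD3) and -1.04 (heat shock, macrophage). Heat shock in NK cells was 0.34 when thinned and -0.41 with mixed cells kept, and in other CD3 cells -0.19 with gates set on thinned cells.

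For macrophages over CD8 T cells, the medians were 1.03 (immediate early) and -0.34 (heat shock) in the control library and 0.36 and -0.35 in the Nrp1L/L library. They became -0.087 (heat shock, control) and 0.063 (immediate early, Nrp1L/L) when thinned, and -0.047 (heat shock, control) without cycling cells. Median-of-ratios scaling gave 1.26, -0.11, 0.60 and -0.11, and the UMI window gave 1.51 and 0.11 in the control library. Signs turned for Egr2 in CD8 T cells (0.85 thinned, 0.77 without cycling cells), Ier3 in NK cells (0.023 thinned), Hspa1a in other CD3 cells (-0.51 with gates on thinned cells, -0.057 in the window) and, in the window, Ier3 (-2.13) and Nr4a3 (1.61) in other CD3 cells and Egr1 (0.64), Btg2 (-0.054) and Dnajb1 (-0.16) in macrophages. The cause was not tested. Counts of higher immediate early genes ran from 8 to 12 in CD8 T, 7 to 15 in other CD3 and 8 to 16 in NK cells, lower ones in macrophages from 2 to 9 and in monocytes from 2 to 5, and lower heat shock genes from 1 to 5 in CD8 T, 0 to 2 in other CD3, 0 to 5 in NK cells, 3 to 8 in macrophages and 3 to 5 in monocytes. Depth limits Egr2, Egr3, Nr4a3 and Hspa1b, each with few UMIs in most gates.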
